A study of Mus musculus with 12 samples.

Results

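The genes of the cell cycle and of DNA replication described here were a list of 42 chosen by name, from the proliferation markers Mki67 and Top2a to the tumour suppressors Rb1 and Trp53, in RNA-seq profiles of mouse midbrain microglia, the resident macrophages of the brain. Of the 42, 41 were matched by symbol among the 21125 genes of the deposited table, and Cdkn2a was not analysed here. The study crossed genotype with treatment. Control animals (WT) had the genotype Ppargc1a FF, a floxed allele of the transcriptional coactivator gene Ppargc1a, and deficient animals (KO) had the genotype Ppargc1a FF CreER, in which a tamoxifen-dependent recombinase can remove that allele. Animals of both genotypes received either PBS or MPTP, a toxin that kills dopaminergic neurons, and every sample, control or deficient, was taken 6 weeks after tamoxifen. The labels do not name the promoter behind the recombinase, the age of the animals or any pooling.

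The labels name 12 samples, 3 in each of the 4 groups, but 6 of the 12 columns are arithmetic copies of other columns, so the values below come from 6 separate profiles, namely numbers 1 and 2 of WT PBS and of KO PBS, number 1 of WT MPTP and number 2 of KO MPTP. The values of KO PBS 2 return 1.02 times as high in the column KO MPTP 1, so its treatment cannot be told from the table. No member was among the 42 genes with values off these relations. Values are FPKM, fragment counts divided by the length of the transcript and the size of the library, and the separate columns summed to between 388861 and 425554 FPKM, with KO PBS 2 at 389882. Read depth is unknown. Ppargc1a was at 2.72 to 6.21 FPKM in the WT profiles and at 0.12 to 0.42 in the KO profiles. All 12 matched macrophage lineage genes were above 1 FPKM, including Csf1r at 117, whereas 7 of 11 homeostatic microglia genes were under 1 FPKM, with P2ry12 at 0.19, Cx3cr1 at 0.05 and Sall1 listed at 0 in every profile. The sorted microglia, as labelled, were thus low in several transcripts that define this cell type. Whether profiles of 1 group stem from different animals is not stated, so the p-values here reflect variation between profiles that could be purely technical.

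Cells that divide pass through a fixed order of phases. D-type cyclins with Cdk4 or Cdk6 inactivate the Rb1 protein and release E2F factors, E-type cyclins and Cdk2 start DNA synthesis, and A- and B-type cyclins with Cdk1 drive mitosis, while CDK inhibitors oppose these kinases. Transcripts of the licensing, synthesis and mitotic machinery are low in resting cells and peak in S phase or in G2 and mitosis. Microglia of the healthy adult brain divide rarely and can proliferate after injury.

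Many mitotic genes are switched by a short element, the cell cycle genes homology region (CHR), often with CCAAT boxes nearby, and many S phase genes by E2F sites. Promoters of 5 members are shown because they span these arrangements: both proliferation markers, and the highest member by mean summed FPKM among the mitotic, licensing and kinase genes. Each runs 5′ to 3′ on the strand of its gene from 250 bases before to 50 bases after the RefSeq start, in GRCm38.p6, and capitals mark matches on either strand to CHR (TTTGAA or TTCGAA), to the CCAAT box, and to an E2F core (TTCCCGC or TTCGCGC or TTGCCGC or TTGGCGC). Matches can overlap. The windows are chr7:135716330-135716629 on the minus strand for Mki67, chr11:99024140-99024439 on the minus strand for Top2a, chr2:164769679-164769978 on the plus strand for Ube2c, chr5:138171834-138172133 on the minus strand for the upstream start of Mcm7, and chr10:127063285-127063584 on the plus strand for Cdk4.
Mki67: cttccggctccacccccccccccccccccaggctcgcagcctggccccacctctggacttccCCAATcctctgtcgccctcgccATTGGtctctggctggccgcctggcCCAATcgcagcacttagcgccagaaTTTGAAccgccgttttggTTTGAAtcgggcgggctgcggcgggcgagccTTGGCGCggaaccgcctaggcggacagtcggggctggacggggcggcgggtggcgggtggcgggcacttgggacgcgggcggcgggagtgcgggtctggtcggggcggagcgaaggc
Top2a: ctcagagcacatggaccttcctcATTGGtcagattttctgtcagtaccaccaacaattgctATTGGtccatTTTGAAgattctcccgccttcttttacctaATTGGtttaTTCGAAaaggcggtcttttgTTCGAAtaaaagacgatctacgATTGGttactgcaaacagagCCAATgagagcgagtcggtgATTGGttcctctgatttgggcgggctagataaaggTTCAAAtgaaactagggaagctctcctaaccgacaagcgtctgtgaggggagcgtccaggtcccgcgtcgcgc
Ube2c: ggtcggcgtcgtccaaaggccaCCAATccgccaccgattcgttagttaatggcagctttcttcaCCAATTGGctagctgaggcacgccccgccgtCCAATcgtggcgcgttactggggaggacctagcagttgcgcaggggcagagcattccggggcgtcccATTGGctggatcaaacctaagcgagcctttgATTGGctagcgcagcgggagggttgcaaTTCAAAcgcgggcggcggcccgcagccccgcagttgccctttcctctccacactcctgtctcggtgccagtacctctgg
Mcm7: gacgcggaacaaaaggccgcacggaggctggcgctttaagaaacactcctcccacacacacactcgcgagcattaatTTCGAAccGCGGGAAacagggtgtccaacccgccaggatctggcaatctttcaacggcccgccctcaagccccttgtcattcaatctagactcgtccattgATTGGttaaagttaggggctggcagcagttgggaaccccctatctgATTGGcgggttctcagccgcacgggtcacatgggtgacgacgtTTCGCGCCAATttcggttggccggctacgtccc
Cdk4: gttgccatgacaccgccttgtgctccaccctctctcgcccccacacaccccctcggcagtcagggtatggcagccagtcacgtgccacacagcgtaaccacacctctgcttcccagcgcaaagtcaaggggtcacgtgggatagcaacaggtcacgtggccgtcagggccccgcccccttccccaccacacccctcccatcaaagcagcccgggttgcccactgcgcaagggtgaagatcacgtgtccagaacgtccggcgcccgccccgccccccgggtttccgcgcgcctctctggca
Mki67 has 2 CHR matches, 3 CCAAT matches and 1 E2F core. Top2a has 4 CHR and 6 CCAAT matches, and Ube2c has 1 CHR and 6 CCAAT matches. The Mcm7 window has 1 CHR match, 3 CCAAT matches and 3 E2F cores, of which 2 overlap each other and a CCAAT match. The window of the other Mcm7 start, not shown, has 1 CCAAT match, 1 E2F core and no CHR match. The Cdk4 window has no match to any of the 3 motifs.

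The RefSeq promoter table held 35 of the 42 genes. A CHR match lay in a window of 12 of the 35 and a CCAAT match in 25, against 21.7% and 41.1% of all 27025 genes counted in the same way (19.2% and 37.4% of the 32851 promoters). An E2F core lay in 14 of the 35, against 10.9% of all genes (9.57% of promoters). All 12 genes with a CHR match also had a CCAAT match, a pair found in 9.65% of all genes (7.52% of promoters), and all 12 were among the 25 genes with roles in S phase or mitosis. None of the 10 genes in other roles (D-type cyclins, Cdk2, Cdk4 and Cdk6, CDK inhibitors and transcriptional regulators) had a CHR match, while 6 of them had a CCAAT match. These matches describe letters in the windows and are not evidence of binding.

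Transcripts of the dividing-cell programme were present in every profile. Of the 41 genes, 40 had a mean of at least 1 FPKM, which is 97.6% against 50.2% of all 21125 genes, and the same 40 were at or above 1 FPKM in each of the 6 profiles. The median member was at 15.3 FPKM, against 1.03 FPKM for all genes and 10.2 FPKM for the 10634 genes above the filter on low values. In 32 members the mean exceeded 10 FPKM, a level near the upper quartile of all genes (10.3 FPKM) and near the median of genes above the filter. These members include the CDK inhibitor Cdkn1a and the tumour suppressors Rb1 and Trp53. Above the 90th percentile of all genes stood 10 members. No resting or dividing reference population was part of the design, so the share of cells in cycle was not measured. In bulk samples a smaller number of such cells and less RNA per cell cannot be told apart.

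**Figure D1:**
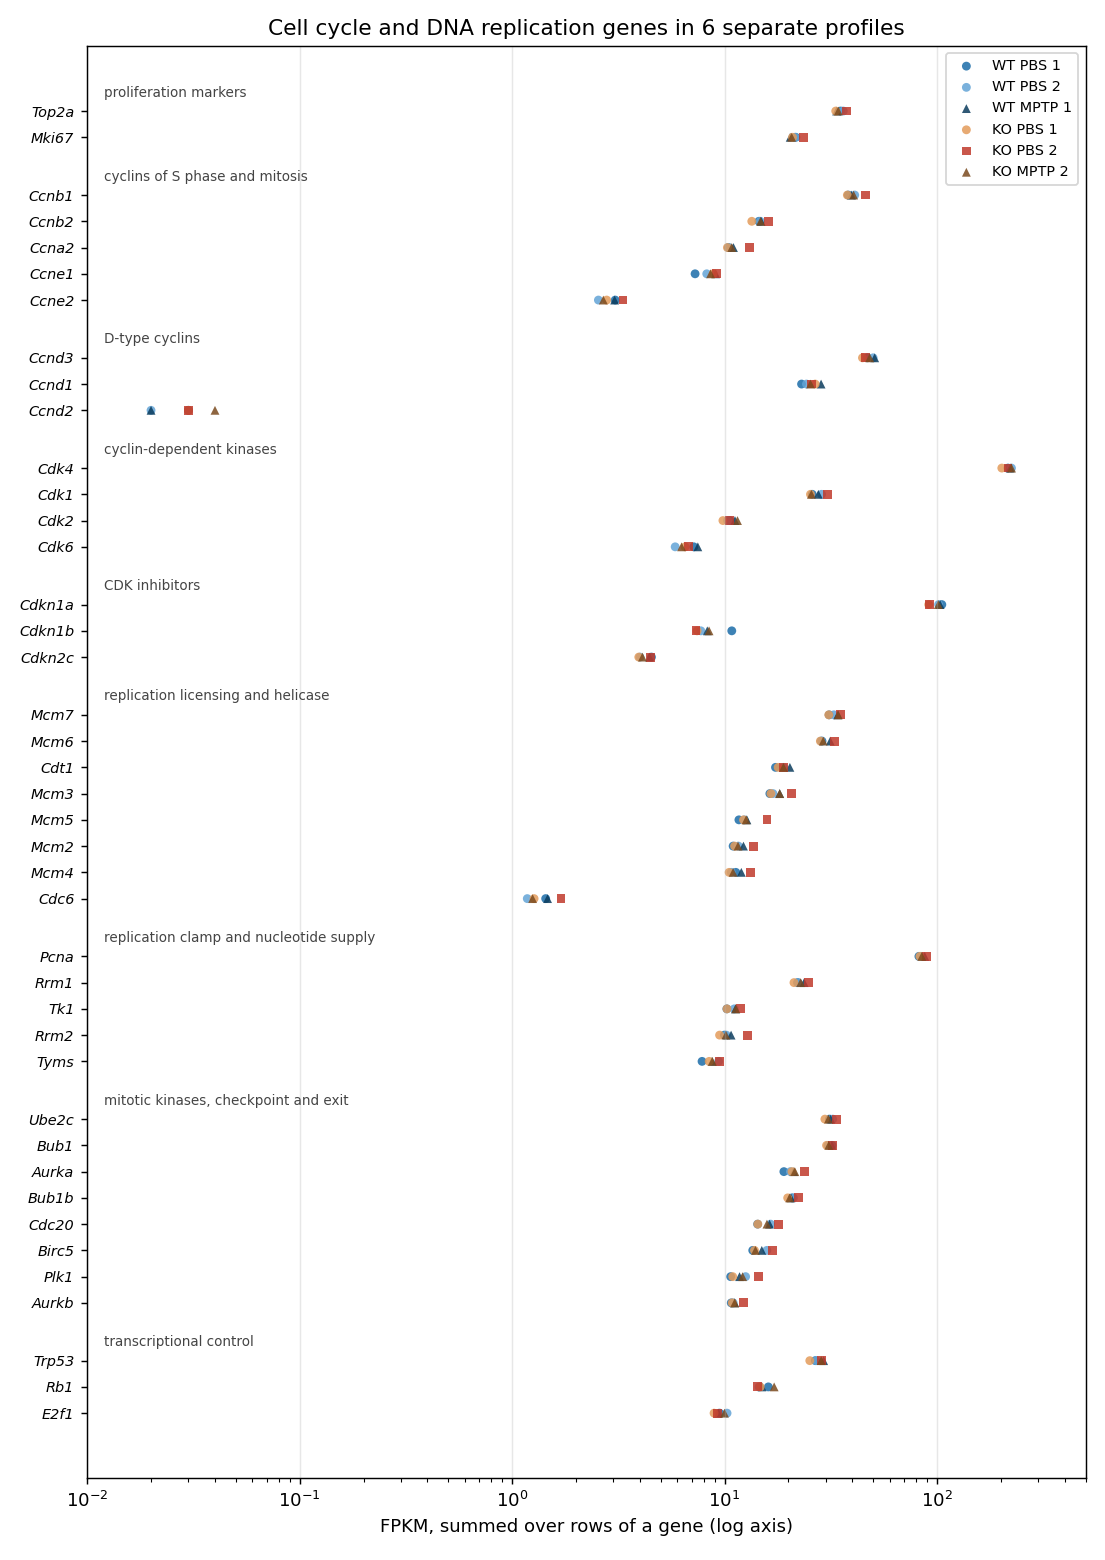
FPKM of each of the 41 genes (log axis) in the 6 separate profiles, 1 symbol per profile, in blocks by role. All genes but Ccnd2 lie above 1 FPKM, and the red squares (KO PBS 2) lie at the right edge of most rows in the S phase and mitosis blocks.

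Both proliferation markers were well above the median of all genes. Mki67, which encodes a protein that coats chromosomes in cycling cells, was at 21.6 FPKM in WT PBS 1, 21.5 in WT PBS 2, 20.4 in WT MPTP 1, 20.9 in KO PBS 1, 23.5 in KO PBS 2 and 20.7 in KO MPTP 2. Top2a, the topoisomerase that untangles sister chromatids, was at 35.2, 36.2, 33.7, 33.4, 37.6 and 34.3 FPKM in the same order. KO PBS 2 was the highest profile for both genes, and the ranges of WT and KO profiles overlapped. The means were 21.4 ± 1.11 FPKM for Mki67 and 35.1 ± 1.62 FPKM for Top2a (SD, n = 6 profiles).

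The cyclins of S phase and mitosis spanned more than a factor of 10 in level. Ccnb1, the mitotic B-type cyclin, was the highest at 40.5 ± 2.93 FPKM, followed by Ccnb2 at 14.7 ± 0.837, Ccna2, the cyclin of S phase and G2, at 11.0 ± 1.05, and Ccne1, a cyclin of S phase entry, at 8.54 ± 0.710. Ccne2 was the lowest at 2.91 ± 0.286 FPKM. In these sums no profile of 1 cyclin reached the range of its neighbour in the order. The sum for Ccnb1 covers 7 rows, however, and its largest row, between 14.5 and 19.3 FPKM, overlapped the range of Ccnb2, between 13.4 and 16.1. Ccna2 was at 10.4 FPKM in WT PBS 1, 10.5 in WT PBS 2, 11.0 in WT MPTP 1, 10.3 in KO PBS 1, 13.1 in KO PBS 2 and 10.8 in KO MPTP 2. KO PBS 2 stood apart, and the other 5 profiles lay between 10.3 and 11.0 FPKM.

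Among the G1 genes, levels were uneven within a family. Of the D-type cyclins, which link growth signals to the cycle, Ccnd3 was at 47.8 ± 2.40 FPKM and Ccnd1 at 25.6 ± 1.88, and the ratio of Ccnd3 to Ccnd1 lay between 1.67 and 2.06 in the 6 profiles. Ccnd2 was between 0.02 and 0.04 FPKM and was the only member that did not pass the filter. Cdk4, the kinase partner of D-type cyclins, was the highest member by summed rows at 217 ± 8.38 FPKM, whereas Cdk6, which has the same partners, was at 6.69 ± 0.595. Summed Cdk4 was between 29.5 and 38.2 times as high as Cdk6 within a profile. The sum covers 9 rows, and by its largest row alone Cdk4 was at 64.3 FPKM, under Cdkn1a at 94.2 and Pcna at 83.5, and between 9.96 and 13.1 times as high as Cdk6. Cdk1, the mitotic kinase, was at 27.3 ± 2.02 FPKM and Cdk2, the kinase of S phase entry, at 10.7 ± 0.603.

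The CDK inhibitors were led by Cdkn1a, which encodes p21 and is a transcriptional target of p53. Cdkn1a was at 105 FPKM in WT PBS 1, 102 in WT PBS 2, 103 in WT MPTP 1, 91.5 in KO PBS 1, 92.3 in KO PBS 2 and 101 in KO MPTP 2. The 3 KO profiles were the 3 lowest, and KO MPTP 2 lay just under WT PBS 2. Cdkn1b, which encodes p27, was at 10.8 FPKM in WT PBS 1 and between 7.34 and 8.46 in the other 5 profiles. Cdkn2c, an inhibitor of Cdk4 and Cdk6, was at 4.25 ± 0.264 FPKM. Transcripts of a high CDK inhibitor and of mitotic genes were thus found in the same profiles.

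The replication genes were all detected. The 6 subunits of the Mcm2 to Mcm7 helicase, which work as a single ring, had means between 11.5 FPKM for Mcm4 and 33.1 FPKM for Mcm7. Of the factors that load this ring, Cdt1 was at 18.7 ± 1.02 FPKM and Cdc6 at 1.38 ± 0.191, the lowest tested member. Pcna, the sliding clamp of the replication fork that also serves DNA repair, was at 85.2 ± 2.82 FPKM. The nucleotide supply genes were lower, with the ribonucleotide reductase subunits Rrm1 at 22.8 ± 1.33 and Rrm2 at 10.6 ± 1.18, thymidine kinase Tk1 at 11.0 ± 0.648 and thymidylate synthase Tyms at 8.78 ± 0.612 FPKM.

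Mitotic kinases, checkpoint genes and genes of mitotic exit lay in a narrow band. The lowest of the 8 was Aurkb, a kinase of chromosome segregation, at 11.2 ± 0.566 FPKM, and the highest by mean was Ube2c, the ubiquitin-conjugating enzyme of the anaphase-promoting complex, at 31.6 ± 1.38. Bub1 and Bub1b, genes of the spindle checkpoint, were at 31.4 ± 0.848 and 20.8 ± 0.864 FPKM. Bub1 was within the SD of Ube2c and above it in 4 of the 6 profiles, and the spindle kinase Aurka was at 21.1 ± 1.56. Plk1, a kinase of mitotic entry, was at 12.1 ± 1.36, Birc5, the survivin gene, at 14.8 ± 1.29, and Cdc20, an activator of the anaphase-promoting complex, at 15.9 ± 1.39 FPKM. Of the transcriptional regulators, Trp53 was at 27.5 ± 1.49, Rb1 at 15.3 ± 1.10 and E2f1 at 9.56 ± 0.495 FPKM.

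Further genes of the same machinery had lower levels. In lists of related genes, the median was 5.33 FPKM for 44 kinetochore and spindle genes, 7.12 for 22 genes of origin recognition and helicase activation, 9.96 for 33 replication fork genes, 9.12 for 21 chromosome condensation and cohesion genes, and 11.1 for 34 G2/M regulators and subunits of the anaphase-promoting complex. Within the kinetochore and spindle list Zwint and Ckap5 were the highest at 25.1 and 22.4 FPKM, and Ska1 and Cit the lowest at 0.898 and 1.73. Of the 24 genes of E2F, pocket protein and MuvB transcription, with a median of 4.48 FPKM, E2f7 was at 0.392 and Mxd3 at 0.89, while Myc was at 50.7. Of 20 further CDK inhibitors, CDKs and cyclins, Ccni was the highest at 95.9, and of 26 p53 pathway genes, the apoptosis gene Bax at 97.6 FPKM. A list of 15 widely expressed genes had a median of 148 FPKM.

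The profile KO PBS 2 differed from the rest across the programme. It was the highest of the 6 profiles in 28 of the 40 tested members, which is 70.0%, against 8.61% of all 10634 genes tested. For comparison, WT MPTP 1 was the highest in 5 members and in 31.6% of all genes, and KO MPTP 2 in 3 members and in 28.7% of all genes. When each profile was shifted to the same median, KO PBS 2 was the highest in 30 members, 75.0% against 16.5% of all genes. By the largest row of each gene in place of the sum, it was the highest in 25 members, 62.5% against 9.31% of all genes. This is a description of 1 profile whose treatment label is double, and no test was made of it.

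**Figure D2:**
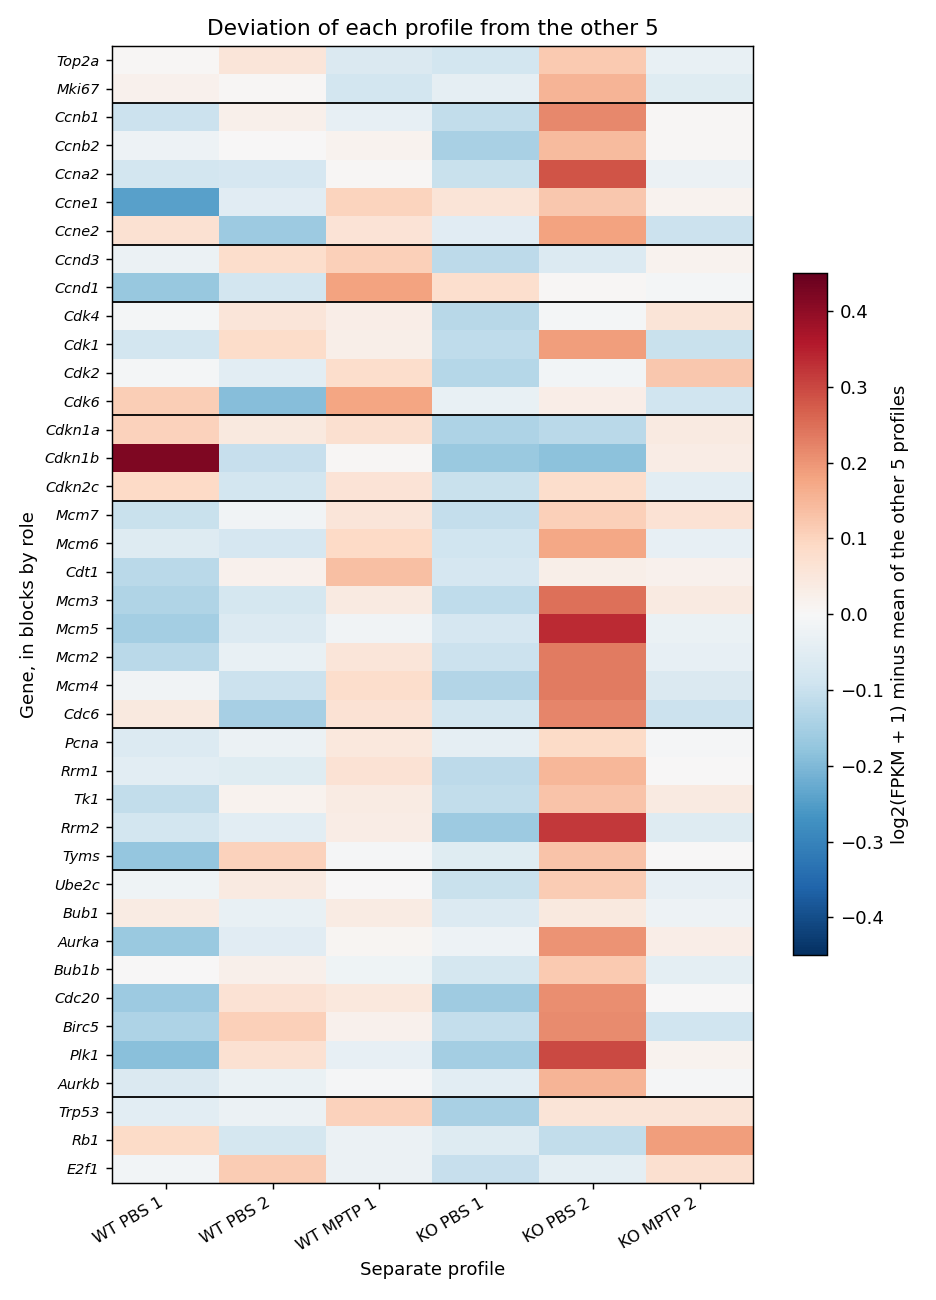
Deviation of each tested gene in each profile from the mean of the other 5 profiles, on the log2(FPKM + 1) scale, as colour, with genes in blocks by role and profiles in columns. KO PBS 2 is above 0 in 33 of the 40 genes, against 33.8% of all genes. These 33 include the 28 that are highest in KO PBS 2 and so must be above 0. KO PBS 1 is above 0 in 2, against 14.6%. With profiles shifted to the same median, KO PBS 1 is above 0 in 11 of 40, against 51.1% of all genes.

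The members that were highest in KO PBS 2 had roles in S phase or mitosis. With the genes grouped after their values had been seen, 28 of 29 members with roles in S phase or mitosis (the proliferation markers, Cdk1, and the cyclin, licensing, clamp, nucleotide supply and mitotic genes) were highest there, and 0 of the 11 members in other roles. The exception was Cdt1, which was highest in WT MPTP 1. Cdk2, the kinase of S phase entry, was counted with the other roles, so both counts depend on how the kinases were split. It was highest in KO MPTP 2 and had a deviation of -0.01 in KO PBS 2. Of all genes tested, 8.61% were highest in KO PBS 2, so 0 of 11 lies near that share. A gene that is highest in KO PBS 2 must lie above the mean of the other 5 profiles, as those 28 did. Cdt1 lay above it too, at 0.03, and so did 33.8% of all tested genes. The median deviation of the 29 was 0.17 on the log2(FPKM + 1) scale. The 11 others had a median of -0.01 and all tested genes a median of -0.03. By role, the median deviation was 0.23 for the licensing genes, 0.18 for the cyclins of S phase and mitosis, 0.18 for the mitotic genes, 0.14 for the markers and 0.13 for the clamp and nucleotide supply genes. It was -0.03 for the D-type cyclins and -0.12 for the CDK inhibitors.

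The sizes were small in absolute terms. The largest ratios of KO PBS 2 to the mean of the other 5 profiles were 1.29 for Cdc6, 1.28 for Mcm5, 1.27 for Rrm2, 1.24 for Plk1 and 1.24 for Ccna2, and the smallest among the 28 were 1.06 for Pcna and 1.03 for Bub1. Mcm5 was at 11.7 FPKM in WT PBS 1, 12.4 in WT PBS 2, 12.8 in WT MPTP 1, 12.3 in KO PBS 1, 15.8 in KO PBS 2 and 12.6 in KO MPTP 2. Rrm2 was at 9.99, 10.2, 10.7, 9.48, 12.8 and 10.2 FPKM in the same order. In both genes KO PBS 2 stood clear of 5 profiles that lay close together. Plk1 was at 10.7, 12.6, 11.8, 10.9, 14.5 and 12.2 FPKM, with KO PBS 2 again the highest. Among all 10634 genes the deviation of Mcm5 in KO PBS 2 was at percentile 99.8 and that of Mki67 at 97.2, whereas Cdkn1a was at 11.5 and Cdkn1b at 2.76. The other CDK inhibitor, Cdkn2c, was at 90.3. Cdkn1a was lower still in KO PBS 1, and the deviation of Cdkn1b is taken from a mean that includes WT PBS 1, where that gene was highest.

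In related genes outside the list, KO PBS 2 was the highest profile for 35 of 43 tested kinetochore and spindle genes, 81.4% against 8.61% of all genes. All 43 lay above the mean of the other 5 profiles, against 33.8% of all genes, with a median deviation of 0.15. For the 35 that were highest there, this follows from being highest. KO PBS 2 was the highest for 17 of 33 replication fork genes, 12 of 21 condensation and cohesion genes and 11 of 21 origin genes. The same held for 16 of 34 G2/M and anaphase-promoting complex genes and 8 of 21 genes of E2F, pocket protein and MuvB transcription. This profile was the highest for 0 of 19 further CDK inhibitors, CDKs and cyclins, 0 of 22 p53 pathway genes and 1 of 15 widely expressed genes. In lists of this size such counts lie near the 8.61% of all genes. None of the 9 marker lists had its highest sum in KO PBS 2, and the part of these markers in the pattern was not tested. The summed level in KO PBS 2 was 1990 FPKM for the 12 macrophage lineage genes, the lowest of the 6 profiles (range 1990 to 2241), and 147 for the homeostatic microglia genes, also the lowest (range 147 to 164). It was 0.57 for 8 lymphocyte genes (range 0.55 to 0.75), 4.32 for 7 granulocyte genes (range 4.31 to 6.62), 0.22 for 3 erythroid genes (range 0.1 to 0.23), 0.13 for 4 neuron genes (range 0.13 to 0.26), 3.11 for 4 astrocyte genes (range 2.88 to 3.33), and 1.44 for 6 oligodendrocyte genes (range 1.4 to 1.92). The 5 vessel genes summed to 82.2 (range 82.2 to 90.5), nearly all of it Flt1, and Cdh5 was listed at 0.

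**Figure D3:**
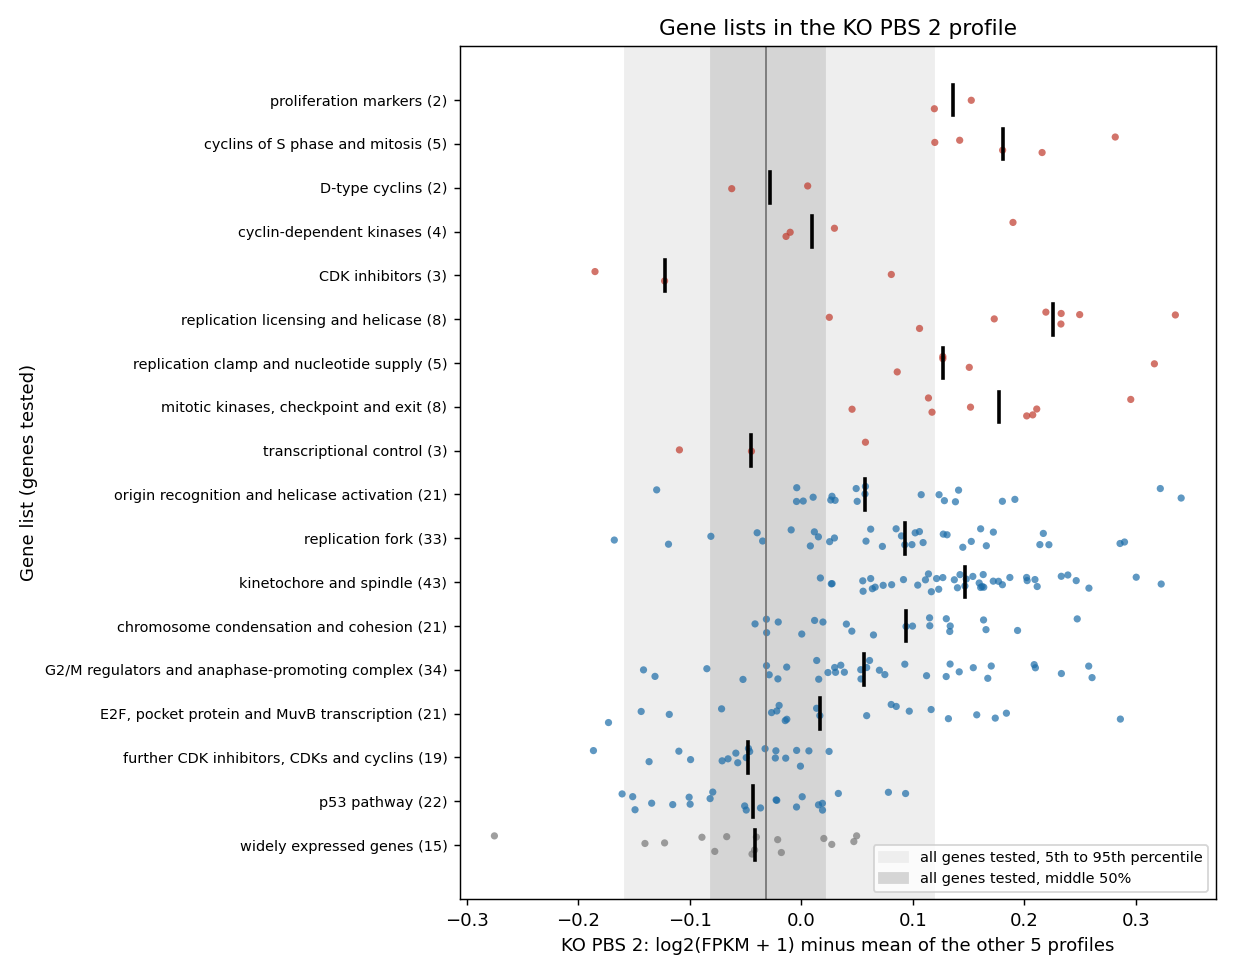
Deviation of each tested gene in KO PBS 2 from the mean of the other 5 profiles, on the log2(FPKM + 1) scale, by gene list (red, members; blue, related genes; grey, widely expressed genes; black bar, list median; band, spread of all tested genes). The licensing, cyclin, mitotic and kinetochore lists lie mostly to the right of the band of all genes, and the p53 pathway list has a median of -0.04.

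The comparison of MPTP with PBS in control microglia set WT MPTP 1 against WT PBS 1 and WT PBS 2. None of the 40 tested members passed the adjusted threshold of 0.05 (limma, Benjamini-Hochberg over all genes), against 0.254% of all genes, and 1 member had an unadjusted p under 0.05, against 2.65% of all genes. That member was Ccnd1, at 23.1 FPKM in WT PBS 1, 24.3 in WT PBS 2 and 28.5 in WT MPTP 1, a log2 difference of 0.26 ± 0.08 (SE; limma, adjusted p = 1). WT MPTP 1 held the highest value of all 6 profiles. Estimates were above 0 in 31 of the 40 members, with a median of 0.07, against 73.0% of all genes with a median of 0.04. With profiles shifted to the same median, 23 of 40 were above 0, with a median of 0.03 against 0.003 for all genes. All 8 licensing genes were above 0 with a median of 0.11, and both proliferation markers were below 0, with Mki67 at -0.08 ± 0.08 and Top2a at -0.08 ± 0.08 (SE). The 95% intervals of the 40 members lay between 0.726-fold and 1.36-fold.

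The same contrast in deficient microglia had a single profile a side. There 0 of 40 members passed the adjusted threshold (limma), against 0.292% of all genes, and 0 had an unadjusted p under 0.05, against 9.23% of all genes. The largest estimate was that of Cdk2, at 9.83 FPKM in KO PBS 1 and 11.5 in KO MPTP 2, a log2 difference of 0.21 ± 0.10 (SE; limma, adjusted p = 0.568). Estimates were above 0 in 34 of 40 members with a median of 0.06, while 86.7% of all genes were above 0 with a median of 0.09. With profiles shifted to the same median, 14 of the 40 were above 0, with a median of -0.05 against -0.009 for all genes. The count also turned on the label of the doubled profile. It was 12 of 40 with KO PBS 2 entered as KO PBS, with a median of -0.04 against 0.08 for all genes. With KO PBS 2 entered as KO MPTP it was 39 of 40, with a median of 0.12 against 0.06 for all genes. No member passed in either fit. The 95% intervals lay between 0.787-fold and 1.47-fold.

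The comparison of deficient with control microglia under PBS gave 0 of 40 members past the adjusted threshold (limma), against 0.226% of all genes. Cdkn1a alone had an unadjusted p under 0.05, against 4.42% of all genes, at 91.5 FPKM in KO PBS 1 against 105 in WT PBS 1 and 102 in WT PBS 2, a log2 difference of -0.18 ± 0.08 (SE; limma, adjusted p = 0.909). Estimates were above 0 in 6 of 40 members with a median of -0.05, against 22.1% of all genes and a median of -0.06. The count was 21 of 40 with profiles shifted to the same median, at a median of 0.005 against -0.0005 for all genes. It was 28 of 40 with KO PBS 2 entered as KO PBS, at a median of 0.05 against -0.04 for all genes. Under MPTP, 0 of 40 members passed, against 0.103% of all genes, and 0 had an unadjusted p under 0.05, against 3.59% of all genes, with 14 of 40 estimates above 0 and a median of -0.03, while 45.8% of all genes were above 0. With the doubled profile entered as KO MPTP, 24 of 40 were above 0 by the values of KO PBS 2 and 27 of 40 by those of KO MPTP 1. The member medians were 0.03 and 0.04, against -0.04 and -0.02 for all genes. The 95% intervals lay between 0.658-fold and 1.32-fold under PBS and between 0.697-fold and 1.33-fold under MPTP.

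The interaction asks whether the MPTP difference was unlike in deficient and control microglia. It was past the adjusted threshold in 0 of 40 members (limma), against 0.0752% of all genes, and past an unadjusted p of 0.05 in 1, against 5.17% of all genes. That member was again Ccnd1, whose difference between MPTP and PBS was 0.26 in control and -0.07 in deficient microglia, an interaction of -0.33 ± 0.12 (SE; limma, adjusted p = 0.786). Both Ccnd1 values rest on single MPTP profiles. The 95% intervals of the interaction were the widest, between 0.649-fold and 1.75-fold.

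**Figure D4:**
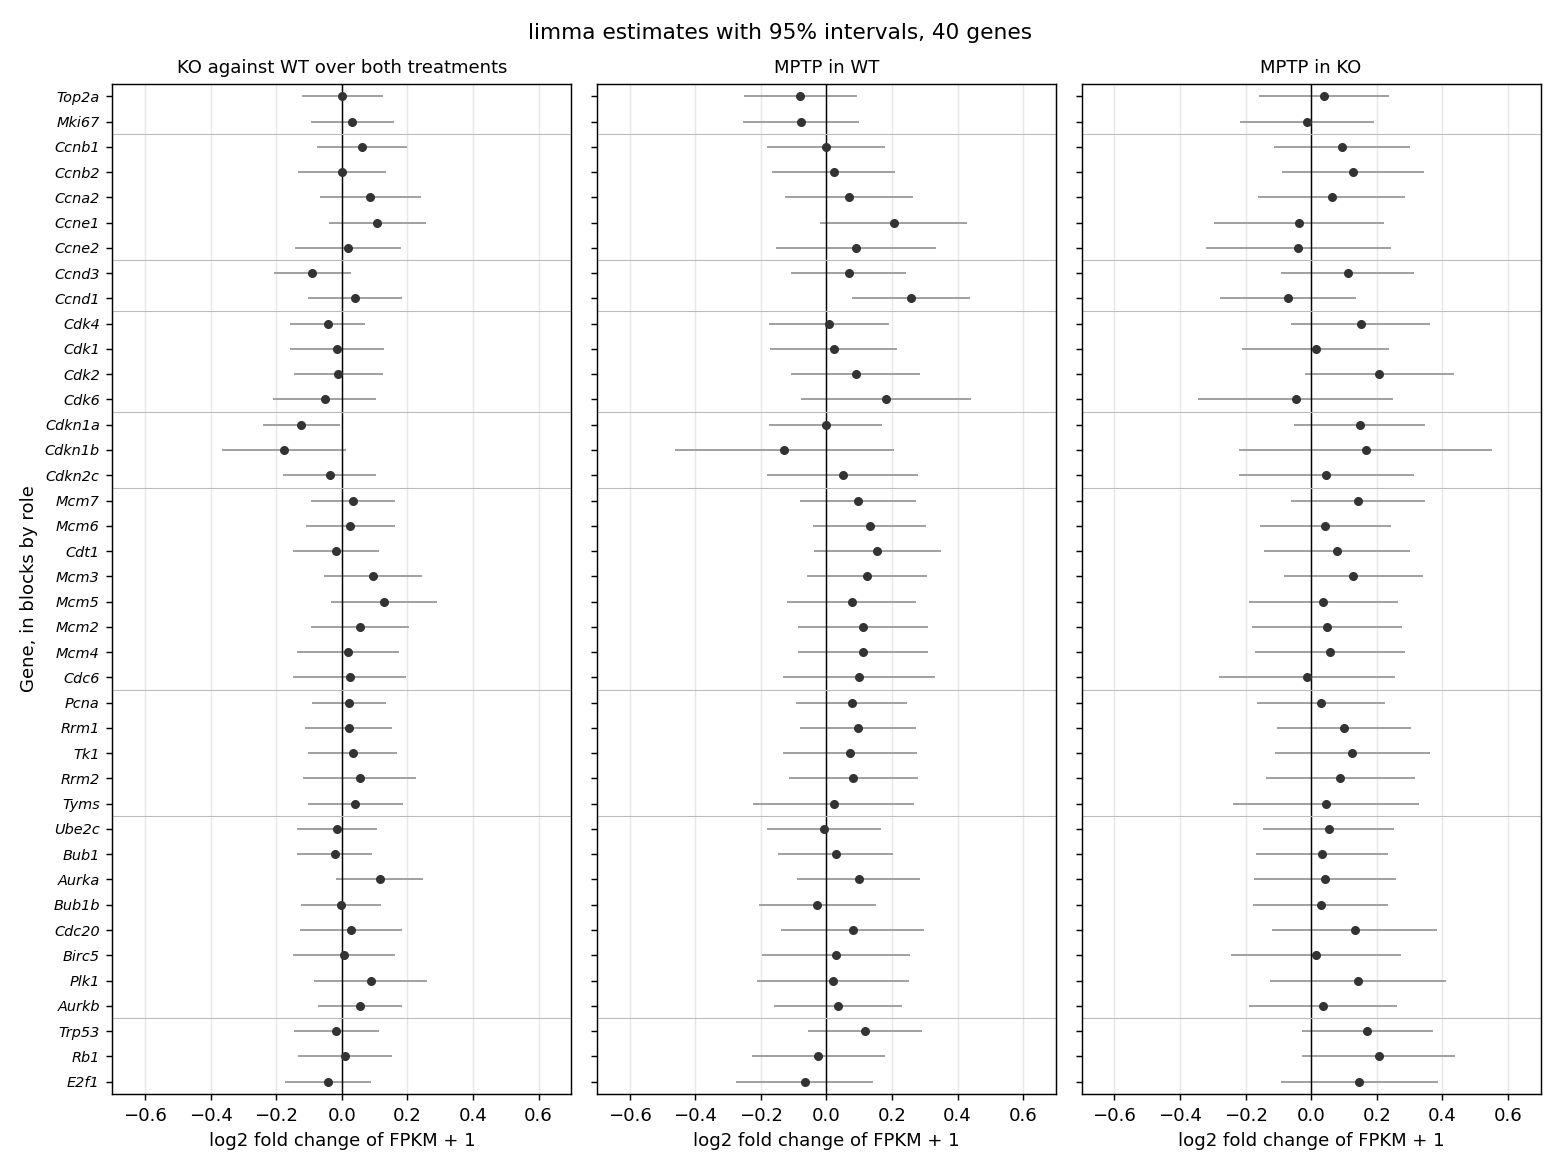
Estimated log2 fold change of FPKM + 1 (points) with its 95% interval (lines) for each of the 40 tested members, in blocks by role, for KO against WT over both treatments (6 profiles) and for MPTP against PBS in WT and in KO (5 profiles). All intervals lie within a fold change of 2 in either direction.

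Genotype could be compared over all 6 profiles, 3 against 3, since KO PBS 2 is KO under either label. No member passed the adjusted threshold (limma), against 0.0376% of all genes, and 1 had an unadjusted p under 0.05, against 3.49% of all genes. Cdkn1a was 104 ± 1.82 FPKM in WT and 95.1 ± 5.53 in KO (SD, n = 3 each), a log2 difference of -0.12 ± 0.06 (SE; limma, adjusted p = 0.997), and its exact permutation p, two-sided, was 0.10, the smallest that 3 against 3 allows. It was the only member whose WT and KO profiles did not overlap, 2.5% of the 40, against 8.01% of all genes, and 7.19% of all genes had all KO profiles lower. Estimates were above 0 in 26 of 40 members with a median of 0.02, against 30.5% of all genes with a median of -0.03. Without KO PBS 2 they were above 0 in 7 of 40, with a median of -0.04 against -0.02 for all genes. Mcm5 had the highest estimate at 0.13 ± 0.08 and Cdkn1b the lowest at -0.18 ± 0.09 (SE). The 95% intervals of the 40 members lay between 0.776-fold and 1.22-fold, so differences beyond these sizes lay outside the intervals for every tested member under this model.

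Related genes gave no call either. Of 213 tested genes in the 8 related lists, 0 passed the adjusted threshold in each of the 6 comparisons (limma). The number with an unadjusted p under 0.05 was 2 for MPTP in WT, 9 for MPTP in KO, 7 for KO against WT under PBS, 4 under MPTP, 4 for the interaction and 11 for KO against WT over both treatments. As shares of the 213 these were 0.939%, 4.23%, 3.29%, 1.88%, 1.88% and 5.16%, so only the last exceeded the share of all genes given above for its comparison. The lowest adjusted p among them was 0.0756, for MPTP in KO.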

How the data were processed

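RNA-seq of sorted midbrain microglia was deposited as 1 table of 67355 rows and 12 columns, all of which were mapped to samples by name. The deposited values were taken as FPKM, because Cufflinks is among the tools in the submitters' processing notes (CASAVA 1.5, Bowtie 0.12.7, TopHat and Cufflinks, with build mm9) and no header states a unit. What annotation was used, which filters were applied and what a row stands for is not given in the sources used here. Depth is unknown, and no interval for counting error can be had.

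Trailing numbers were stripped from row names and rows of 1 symbol were added up, giving 21125 genes (20286 with a symbol in the reference). A row with text in 1 cell was dropped. The 41 members came from 184 rows. How reads were split between near-identical copies or overlapping genes is not given. Of the 12 columns, 6 followed others by fixed factors (1.02 times another column, or 0.1 plus 0.99 times a mean), apart from 49 rows, and were not used as replicates.

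Genes that reached 1 FPKM in 3 or more of the 6 separate profiles were tested (10634 genes, 40 of them members) by limma 3.58.1 with a mean-variance trend in R 4.3.3, on log2(FPKM + 1), with Benjamini-Hochberg adjustment over all genes and a threshold of 0.05. Fold changes on that scale understate the change of low genes. The treatment comparisons used 5 profiles and left out KO PBS 2, with 1 residual degree of freedom, so single profiles were assumed to vary like the WT PBS pair. Genotype over both treatments used 6 profiles. The procedure was tested on simulated data. Alternatives were other pseudocounts and filters, rescaling, the label of KO PBS 2, a replicate block, and all 12 columns as libraries. Each profile was left out in turn for genotype over both treatments. In the other comparisons WT PBS 1, WT PBS 2 or KO PBS 1 was left out, with KO PBS 2 entered as KO PBS at the same time, and no MPTP profile was left out.

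The members and the related lists were chosen with earlier results of these data known. Any member could be named. Of the related lists, genes past the threshold and the 2 highest and 2 lowest by mean could be named, along with defining markers. Promoters came from RefSeq (GRCm38.p6), a build other than that of the deposited values. They were matched by symbol and searched on both strands.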

Additional observations from a re-analysis of the deposited data

How the results depend on the processing

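The members' results rest on 6 profiles, most groups with 1, at unknown depth. Of 84 alternatives over the 6 comparisons, 79 left 0 members past the adjusted threshold (limma), including all 21 that left out a profile (lowest 0, highest 0). In these 79 the share of all genes that passed was at most 0.668%. The 5 others took all 12 columns as libraries, which counts computed columns as replicates. They gave 6 members for MPTP in WT (Ccnd1, Ccne1, Cdk2, Cdk6, Cdt1 and Trp53, all higher), 4 for KO against WT under PBS (2 higher and 2 lower), 3 lower for KO against WT under MPTP, 1 lower for the interaction and 2 lower for KO against WT over both treatments. Of the 40 members these counts stand against 20.2%, 12.4%, 14.5%, 1.19% and 9.62% of all genes, and 4 of the 5 member shares were below that of all genes. The same setting gave 0 for MPTP in KO. The median member level was 15.3 FPKM, between 15.0 and 15.5 with a profile left out and 14.7 with only the largest row of each gene. With profiles shifted to the same median, 30 members were highest in KO PBS 2, and 25 by the largest row of each gene, both alternatives added after seeing the data.

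With the replicate number as a block, 0 members passed the adjusted threshold (limma) in each of the 6 comparisons. The share of all genes that passed was highest over both treatments, at 0.668%. The median member estimate was 0.12 for MPTP in WT, -0.10 for MPTP in KO and 0.05 for KO against WT under PBS. It was -0.145 under MPTP, -0.205 for the interaction and 0.0004 over both treatments. The medians of all genes were 0.05, 0.07, -0.04, -0.02, 0.02 and -0.04 in the same order. Without the block, the member medians were 0.07, -0.04, 0.05, -0.03, -0.08 and 0.02. The first 5 comparisons entered KO PBS 2 as KO PBS both with and without the block. The differences between numbers 1 and 2 correlated at 0.227 between WT PBS and KO PBS across genes. The labels give no shared animal or day for a number, so only the number is shared.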
